A study of Homo sapiens with 171 samples.

Results

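The genes described here encode the proteins of the cytosolic ribosome and were measured in 46 ovarian cancer cell lines after cisplatin and without it. They were chosen by symbol: RPL or RPS, a number, and at most 1 further letter A, X, Y or L, on probe sets annotated to that symbol alone. This gave 59 of the 18417 genes measured, 22 of the small subunit (RPS) and 37 of the large subunit (RPL). A gene with several probe sets was read from the brightest one, by its mean across the arrays. Symbols of kinases (RPS6K), of the mitochondrial ribosome (MRPL, MRPS) and of the stalk proteins were outside the rule. A further 11 genes that fit the rule, among them RPL39, RPL6 and RPS26, lay only on probe sets shared with other symbols, and 7 more were not analysed here.

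Treated cultures had 48 h of cisplatin at the GI50 of their own line, the concentration that slows growth to a fixed share of the control, and untreated cultures of the line were the control. The concentrations themselves were not analysed here. All groups were established human cell lines with no other treatment in the labels, so each line is a single lineage, and lines with related names, such as A2780 and A2780cisR or the DOV13, Hey and SKOV lines, entered as separate lines. The 18 lines of batches 1 to 3 had 3 treated and 3 untreated cultures (2 and 3 in HeyA8), and the 28 further lines of batches 4 and 5 had 1 of each. Expression was read on Affymetrix arrays as log2 RMA values. All changes below are the treated mean minus the untreated mean of 1 line within 1 batch, on the log2 scale, and levels are compared only within a batch and a gene. Nothing in the labels says that numbered cultures were grown apart, so a p-value within a line rests on a spread that may be technical.

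A ribosome holds about 1 copy of each of its proteins, and cells hold their amounts in balance mainly through translation and degradation. Most ribosomal protein mRNAs begin with a run of pyrimidines, the 5′ terminal oligopyrimidine motif, through which mTOR signalling controls their translation without a change in mRNA level. Several free ribosomal proteins, RPL5 and RPL11 foremost, bind the ubiquitin ligase MDM2 and stabilise p53 when ribosome assembly fails. RPS27L is a close paralog of RPS27 and a known direct target of p53, and cisplatin forms DNA adducts that activate p53.

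The start sites of RPS27L and of RPS27 are shown because their transcripts begin differently, and those of RPS23, RPL7A and RPS24 because these genes were lower after cisplatin. Each line gives 10 bases before and 20 bases from the RefSeq start (GRCh38.p14), read 5′ to 3′ on the strand of the gene. Capitals mark the first transcribed base and any unbroken run of pyrimidines that follows it. The windows are chr15:63157458-63157487 (minus strand), chr1:153990752-153990781 (plus), chr5:82278335-82278364 (minus), chr9:133348208-133348237 (plus) and chr10:78033853-78033882 (plus).
RPS27L: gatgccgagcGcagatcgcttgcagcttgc
RPS27: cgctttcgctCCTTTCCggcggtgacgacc
RPS23: cggtgcttctCTCTTTCgctcaggcccgtg
RPL7A: attccctttcCTTTCTCTCTCCTCCCgccg
RPS24: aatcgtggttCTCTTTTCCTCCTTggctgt

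RPS27, RPS23, RPL7A and RPS24 start at a C, with 7, 7, 16 and 14 pyrimidines in a row when counted from the start base. RPS27L instead starts at a G, with no pyrimidine run from the start base. The promoter table held 58 starts for 48 of the genes. Of these starts, 34 (58.6%) had a C at the start base followed by at least 4 pyrimidines on the strand of the gene, against 4.54% of the 22199 promoters in the table. Within 5 bases of the annotated start the motif was found in 45 of the 58 starts (77.6%), against 22% of those promoters. The motif was searched on that strand only. A match of letters is a description of the annotated sequence.

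Several arrays stood apart from their replicates or from the rest of their line. OVCAR-10 had the lowest untreated KRT8 of the 18 replicated lines, at 6.79 against a median of 12.24, and the highest PTPRC, a leukocyte surface gene, at 9.48 against a median of 2.89. The other leukocyte markers were highest in other lines, and CD14 was lowest in OVCAR-10, at 4.95 against a median of 5.22. The leukocyte list of 9 genes averaged 4.87 in untreated OVCAR-10, against 5.19 in OV90, the highest line. The treated culture 1 of OVCAR-10 had KRT8 at 10.94, against 6.28 and 6.51 in the treated cultures 2 and 3 and 6.57 to 6.98 in the untreated ones. TYK-nu had the highest PECAM1, an endothelial gene, at 12.17, and PA-1 the highest LIN28A, an embryonal gene, at 12.73. In batches 4 and 5, the treated or untreated array of Hey, OAW28, SKOV-6 and TOV-21G correlated best with another line once genes were centred; the arms of Hey correlated at 0.30. The treated culture 3 of OVCA420 and the untreated culture 1 of A2008 also stood apart, each with a highest correlation of 0.98 within its line. The main results that rest on these arrays are given with and without them.

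Over the 46 lines, 1 of the 59 genes rose, 3 fell and 55 did not pass the limma test at an adjusted p of 0.05. RPS27L, the p53-inducible paralog of RPS27, rose by 0.38 ± 0.07 (SE, n = 46 lines, 1.30-fold, adjusted p = 0.000132) and was higher in 39 lines. RPS23, a protein of the decoding centre, fell by 0.17 ± 0.05 (adjusted p = 0.0138), RPS24, a small subunit protein mutated in Diamond-Blackfan anemia, by 0.13 ± 0.04 (adjusted p = 0.0455), and RPL7A, a large subunit protein, by 0.11 ± 0.03 (adjusted p = 0.0236). Of all genes 4.98% rose and 4.72% fell, so the share of the set that fell (5.08%) was near the background, and the share that rose (1.69%) was below it. RPS24 no longer passed when any of 32 lines was left out. RPL7A was at -0.08 (adjusted p = 0.111) and RPS24 at -0.09 (adjusted p = 0.105) after removal of the trend of change with level in each line. With each batch given equal weight, or without batch 4, RPS27L passed and 0 genes were lower.

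**Figure D1:**
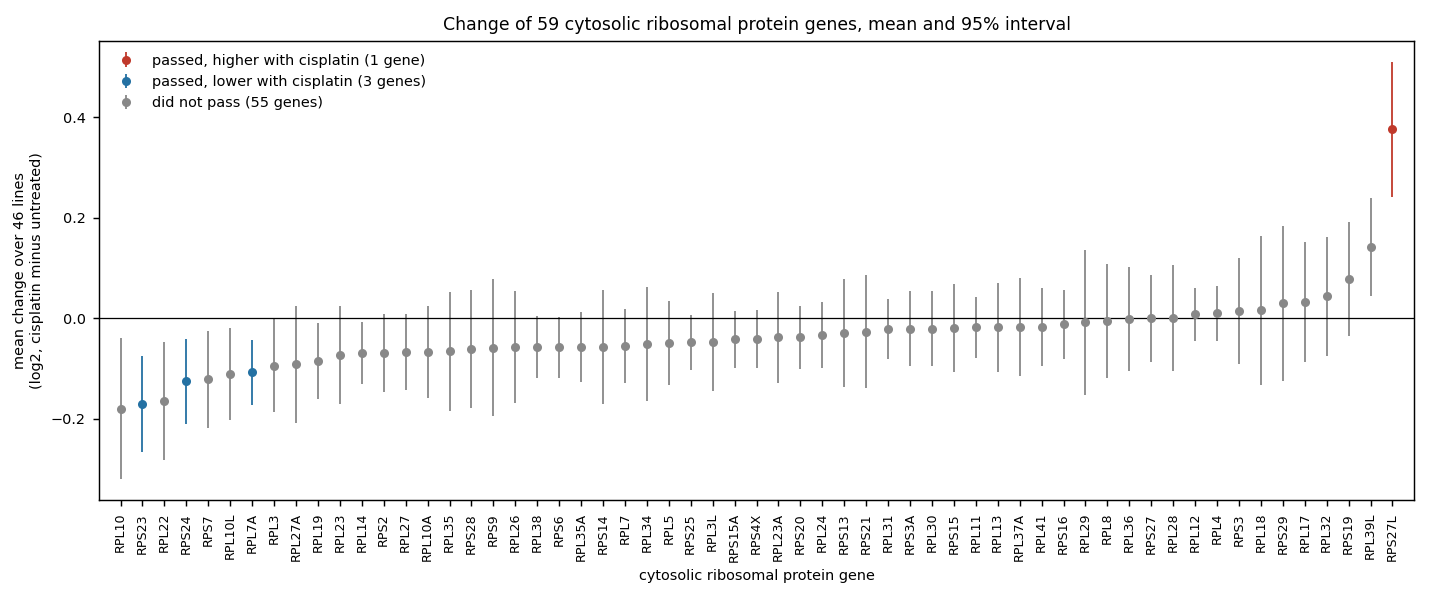
Mean change over 46 lines with its 95% interval (y axis, log2, cisplatin minus untreated) for the 59 genes, ordered by change. RPS27L stands apart at 0.38, and the intervals of most other genes cross 0.

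Of the 59 genes 48 (81.4%) had a mean change below 0, against 53.1% of all genes. Their median was -0.04, against -0.01 over all 18417 genes, and by batch it was 0.02, -0.02, -0.03, -0.08 and -0.05. With the trend of change with level removed, the median of the set was -0.00022, with 2 genes higher and 1 lower. The small and large subunits had medians of -0.04 and -0.05. For 55 of the 59 genes the 95% interval lay within a change of 1.2-fold either way, as it did for 15367 of all genes. A p that misses the threshold does not show that a gene did not change, but these intervals bound the size. In whole cultures, fewer cells of a kind and less RNA per cell cannot be told apart.

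RPS27L varied widely between lines. Its line changes ran from -0.66 in SKOV-6 through a median of 0.40 to 1.89 in OVK-18, with RMG-I at 1.32 and CH1 at 1.10 next below. The 3 lowest lines were SKOV-6, TOV-21G at -0.62 and Hey at -0.55, all of them among the 4 lines whose arrays matched another line best. It was higher by more than 1.2-fold in 27 lines and lower by more than that in 3. The mean was positive in each batch, at 0.44, 0.52, 0.43, 0.36 and 0.29 in batches 1 to 5, and leaving out each line in turn gave 0.34 to 0.40. Within single batches of 5 to 17 lines it passed in batch 4 alone, and in batches 4 and 5 together it was at 0.32 (adjusted p = 0.0523).

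RPS27, whose protein differs from RPS27L by few residues, did not pass. Its mean change was -0.00026 ± 0.04 (SE, n = 46 lines, adjusted p = 0.998) with a 95% interval of -0.09 to 0.09, and it was higher in 24 lines. Its line changes ran from -0.59 in OVCA432 through 0.03 to 0.98 in OVK-18.

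In the 18 replicated lines RPS27L passed as higher in 9 and RPS27 in 0. Of all 18417 genes, 143 passed in at least 9 of these lines, in either direction. Leaving out all cultures of 1 replicate number at a time left RPS27L past the threshold in 4 or 5 lines. It passed in 6 lines with each line fitted alone and in 7 with arrays centred on their median. In CH1, the line with the largest of these, RPS27L was at 7.51, 7.34 and 7.33 in treated cultures, against 6.02, 6.53 and 6.33 in untreated ones, so the arms did not overlap. RPS27 was at 12.56, 12.63 and 12.58 in treated CH1, against 12.53, 12.59 and 12.53 in untreated CH1, and the arms overlapped. The change of RPS27L in CH1 was 1.10 ± 0.15 (SE, adjusted p = 1.23e-07). In A2780 it was at 7.41, 7.63 and 7.40 in treated cultures, against 6.73, 6.59 and 6.28 in untreated ones. The other lines past the threshold were PA-1 at 0.84, IGROV-1 at 0.72, OV90 at 0.63, DOV13 at 0.59, OVCAR-10 at 0.58, HeyC2 at 0.50 and OVCAR-8 at 0.43 (adjusted p = 0.0475). Without the treated OVCAR-10 culture 1 the change in that line was 0.55 (adjusted p = 0.252). In TYK-nu RPS27L was at 7.26, 7.22 and 6.72 in treated cultures, against 7.09, 7.24 and 6.93 in untreated ones, with a change of -0.02. Few genes of any kind passed in TYK-nu, with 0.0543% of all genes higher and 0.0217% lower.

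**Figure D2:**
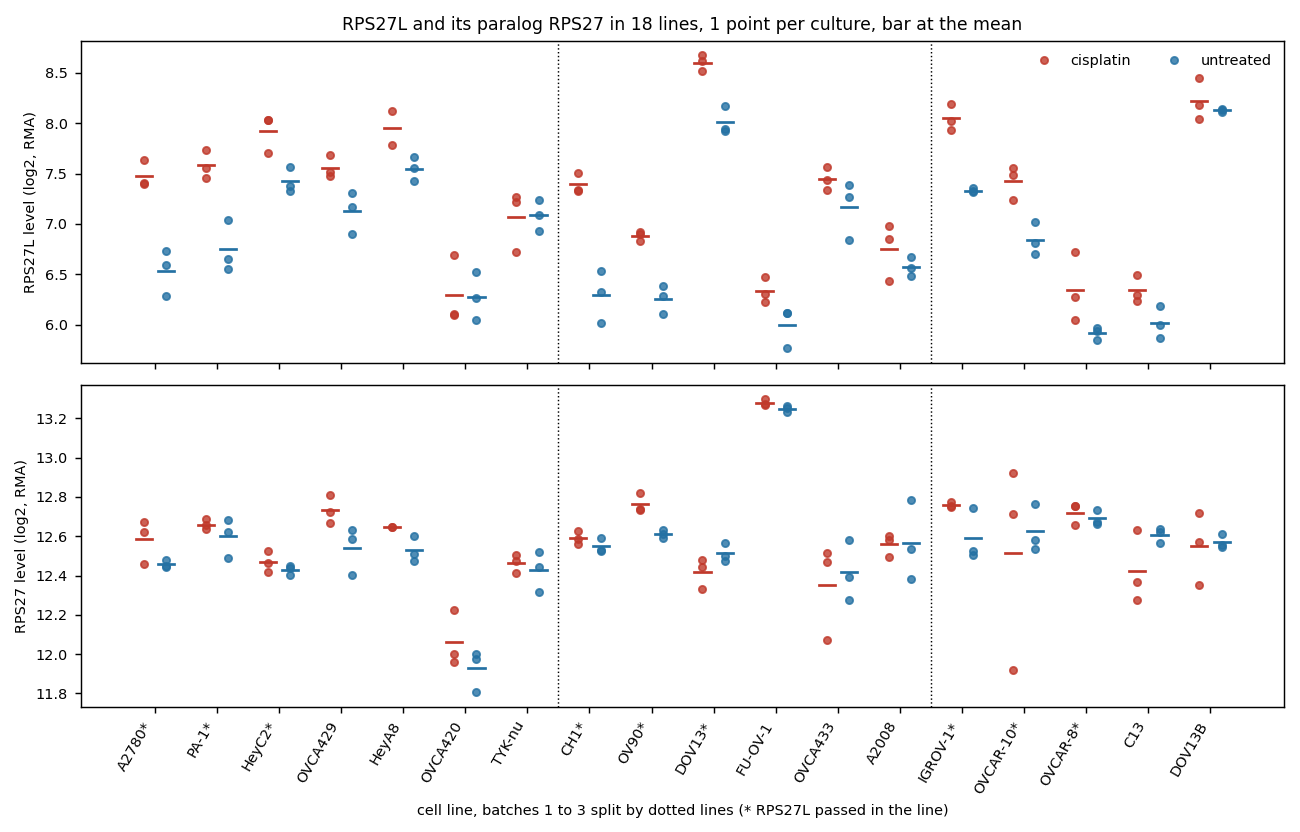
Levels (y axis, log2 RMA) of RPS27L (upper panel) and RPS27 (lower panel) in each culture of 18 lines, treated to the left of untreated, with a bar at each mean. RPS27L passed in the 9 lines marked with a star, where its treated mean was higher by 0.43 to 1.10, and the RPS27 means of a line lie close together.

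RPS27L and CDKN1A, the p53 target encoding p21, did not pass in the same set of lines. CDKN1A passed as higher in 13 of the 18 lines, of which 8 were shared with RPS27L. In CH1 RPS27L passed and CDKN1A, at 0.17 (adjusted p = 0.861), did not. In 5 lines CDKN1A passed and RPS27L did not, though RPS27L was at 0.43 (adjusted p = 0.0954) in OVCA429 and 0.40 (adjusted p = 0.11) in HeyA8, close to its value in OVCAR-8, where it passed. Differences between the genes were not tested. In A2008, CDKN1A rose by 1.47 while RPS27L was at 0.18 (adjusted p = 0.635). Across the 46 lines the changes of both genes, read on the same arrays, correlated at a Pearson r of 0.24 and a Spearman rho of 0.29, and at 0.13 without Hey and RMG-II. Within batches 1, 2, 4 and 5 r was 0.55, -0.37, -0.07 and 0.28 over 7, 6, 11 and 17 lines. Of 18 other p53 targets measured, 14 rose and 0 fell over all lines, against 4.98% and 4.72% of all genes. Their median was 0.31, and GDF15 rose by 0.68, CDKN1A by 0.63 and DDB2, a sensor of DNA damage, by 0.53.

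Of the 4 paralogs with an L suffix, RPS27L alone passed over all lines, where 4.98% of all genes rose and 4.72% fell. RPL39L, a testis-enriched paralog of RPL39 found in many cancer cells, was at 0.14 ± 0.05 (SE, adjusted p = 0.051) and higher in 30 lines. It passed in 13 of the 46 runs that left out 1 line, and at 0.17 (adjusted p = 0.0202) without the 4 lines whose arrays matched another line. RPL10L, a testis paralog of RPL10, was at -0.11 ± 0.05 (adjusted p = 0.125), and RPL3L, the muscle paralog of RPL3, at -0.05 ± 0.05 (adjusted p = 0.636). Their parent genes RPL10 and RPL3 were at -0.18 ± 0.07 (adjusted p = 0.0986) and -0.09 ± 0.05 (adjusted p = 0.221). RPL10 ran from -1.92 in Hey to 0.88 in TOV-21G, both among the 4 lines whose arrays matched another line. Without these lines it ran from -1.03 in JHOS-2 to 0.83 in OV56, with a mean of -0.16 (adjusted p = 0.0812).

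RPS23 had line changes from -0.92 in OVK-18 through a median of -0.13 to 0.93 in OV56, and it was lower in 34 lines. RPS24 ran from -0.79 in Hey through -0.15 to 0.66 in OVK-18 and was lower in 36 lines. The extremes of both came from batch 5, where each arm is 1 array. RPS23 was lower by more than 1.2-fold in 15 lines and RPS24 in 11. In batches 1 to 5 the means of RPS23 were -0.07, -0.02, -0.23, -0.11 and -0.28, and those of RPS24 were -0.13, -0.25, -0.09, -0.08 and -0.12. RPL7A was at 0.05 in batch 1 and at -0.09, -0.06, -0.18 and -0.15 in the others. Without the 4 lines whose arrays matched another line, RPS24 was at -0.09 (adjusted p = 0.119), and RPS27L, RPS23 and RPL7A still passed.

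Of 9 genes whose proteins bind MDM2, RPS27L passed and the other 8 did not. Of all genes, 4.98% rose and 4.72% fell. The 5S ribonucleoprotein genes RPL5 and RPL11 were at -0.05 ± 0.04 and -0.02 ± 0.03 (SE). RPL26, which binds the p53 mRNA, was at -0.06, RPS3, which also acts in DNA repair, at 0.01, and RPS7 at -0.12 (adjusted p = 0.101). RPL22, an RNA-binding protein of the large subunit, was at -0.16 ± 0.06 (adjusted p = 0.062). RPS6, the substrate of S6 kinase, was at -0.06, RPS4X at -0.04 and RPL41, the smallest of the proteins, at -0.02. Of 6 measured genes mutated in Diamond-Blackfan anemia, RPS24 was the 1 that passed, and of 5 at the decoding centre and mRNA channel RPS23 was the 1. Beside those shares of all genes, counts in lists this small are not a result about the lists.

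None of the genes measured differed in its change between batches at the threshold of limma's F test (0% of all genes, with 699 genes and 0 of the 59 at an unadjusted p under 0.05). The smallest unadjusted p among the 59 was that of RPL7A at 0.232, followed by RPL22 at 0.249, RPL14 at 0.329, RPL39L at 0.336 and RPS23 at 0.34. RPL22 had means of 0.06, -0.10, -0.01, -0.34 and -0.21 in batches 1 to 5.

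The response differed between the 18 replicated lines for 14 of the 59 genes (23.7%), against 51% of all genes by the same limma F test. These were RPS27L, RPS9, RPS14 and RPS15 of the small subunit and RPL3, RPL10L, RPL13, RPL24, RPL27, RPL32, RPL36, RPL37A, RPL39L and RPL41 of the large one. After RPS27L, which ran from -0.02 in TYK-nu to 1.10 in CH1, RPL32 had the widest range, from -0.56 in A2008 to 0.51 in FU-OV-1. RPL39L ran from -0.38 in OVCAR-10 to 0.50 in DOV13B, but without the arrays that stood apart it was at -0.08 in OVCAR-10 and lowest in HeyC2 at -0.35. RPS9 ran from -0.56 in PA-1 to 0.30 in HeyA8, and RPL41 from -0.56 in PA-1 to 0.27 in OVCA429. The count was 11 without PA-1, 16 without OVCAR-10, 19 without the 2 treated arrays that stood apart and 13 without the untreated A2008 culture 1. It was 16 without the cultures numbered 1, 2 without those numbered 2 and 5 without those numbered 3.

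Of 1062 pairs of gene and line, 16 passed as higher (1.51%) and 23 as lower (2.17%), against 4.55% and 3.68% of the pairs of all genes. RPS27L made up 9 of the 16, and the other 58 genes had 7 (0.67%). In 5 of the 18 lines none of the 59 passed, and 36 of the genes passed in no line. After RPS27L, the genes that passed in most lines were RPL27 in 3 and RPL3, RPL19, RPL32, RPL37A, RPS7 and RPS14 in 2 each. One line, PA-1, held 12 of the 23 lower pairs. Without the cultures numbered 2 there were 6 higher and 1 lower pairs, and with each line fitted alone 8 and 4.

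**Figure D3:**
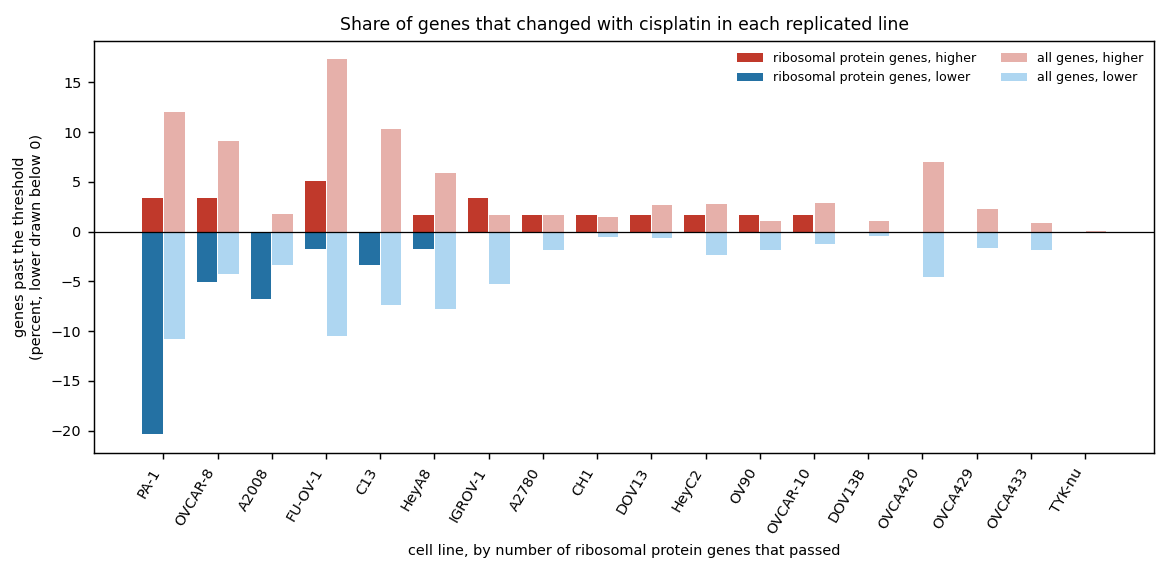
Share of the 59 ribosomal protein genes (strong colours) and of all genes (pale colours) that passed in each of 18 lines (y axis, percent, higher above 0 and lower below 0). PA-1 has the longest bar, for 12 ribosomal protein genes lower, and in OVCAR-8 the strong and pale lower bars are close, at 5.08% and 4.3%.

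PA-1, whose untreated cultures had the highest LIN28A and the lowest EPCAM of the 18 lines, had 12 of the 59 genes lower (20.3%) and 2 higher (3.39%), against 10.8% of all genes lower and 12% higher. The 12 lower genes became 18 without the cultures numbered 1, 0 without those numbered 2, 3 without those numbered 3 and 1 with PA-1 fitted alone. RPL41 was at 12.34, 12.10 and 12.02 in treated PA-1, against 12.66, 12.65 and 12.83 in untreated PA-1, a change of -0.56 ± 0.12 (SE, adjusted p = 0.000289). RPS9, at the mRNA entry of the small subunit, was at 11.92, 11.21 and 11.24 in treated cultures, against 12.08, 12.06 and 11.91 in untreated ones. One treated culture of RPS9 thus lay within the untreated range. RPL19 was at -0.52 and RPL36 at -0.47, and RPS14, RPL24, RPL13, RPL27, RPL30, RPL35A, RPS7 and RPS25 were lower by less. As for RPS9, the arms overlapped for RPL13, RPL19, RPL27, RPL30, RPL35A, RPS7 and RPS25. They did not overlap for RPL24, RPL36, RPL41 and RPS14. The share of all genes whose arms did not overlap in PA-1 is not given here. The 2 higher genes were RPS27L at 0.84 and RPL28 at 0.30. The median change of the 59 genes in PA-1 was -0.09, with 20 of them above 0. The embryonal marker list of 3 genes averaged 10.71 in treated and 10.23 in untreated PA-1, against medians of 4.99 and 5.04 over the lines; its part in the result was not tested.

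In OVCAR-8, 3 genes were lower (5.08%) and 2 higher (3.39%), against 4.3% and 9.12% of all genes, so the share lower was near the background. The count lower was 0 without the cultures numbered 2 or with the line fitted alone, and 7 with arrays centred on their median. RPL3, which contacts the peptidyl transferase centre, was at 12.38, 12.30 and 12.41 in treated OVCAR-8, against 12.74, 12.64 and 12.66 in untreated OVCAR-8, with no overlap. Its change was -0.31, RPS14 was at -0.29 and RPL18 at -0.17, while RPS27L was at 0.43 and RPL17, at the peptide exit tunnel, at 0.34. A2008 had 4 genes lower (6.78%), against 3.39% of all genes: RPL32 at -0.56, RPS24 at -0.48, RPS7 at -0.47 and RPL27 at -0.37. This count was 2 without the untreated culture 1 that stood apart, and 0 without the cultures numbered 2 or with the line fitted alone. FU-OV-1 had RPL32 at 0.51, RPL37A at 0.44 and RPS2 at 0.18 higher and RPL3 at -0.29 lower (5.08% and 1.69%), against 17.3% of all genes higher and 10.5% lower in that line. With the line fitted alone 1 passed in each direction.

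RPL32, RPL37A and RPL27 passed in opposite directions in different lines. Each also passed the F test of the lines, but that test used the same cultures and fit, so it is not separate evidence. The lower calls of RPL32 and RPL27 in A2008 depended on the fit. With A2008 fitted alone, or without the cultures numbered 2, 0 ribosomal protein genes passed as lower there. Without the untreated A2008 culture 1 that stood apart, 2 passed as lower, and which genes these were is not given here. RPL32 was at 6.85, 6.31 and 6.84 in treated A2008, against 7.57, 7.19 and 6.92 in untreated A2008. In FU-OV-1 it was at 7.97, 8.22 and 8.19 in treated cultures, against 7.66, 7.48 and 7.69 in untreated ones. The arms did not overlap in either line. RPL37A was higher in FU-OV-1 at 0.44, where the arms overlapped (7.92 to 8.58 in treated and 7.43 to 8.08 in untreated cultures), and lower in HeyA8 at -0.37, where they did not. RPL27 was higher in HeyA8 at 0.37 and lower in A2008 at -0.37, with no overlap in either, and lower in PA-1 at -0.35, where the arms overlapped. Among the other replicated lines, the largest changes that passed, besides RPS27L, were RPS29 in IGROV-1 at 0.76, where treated cultures were at 8.13, 8.97 and 8.62 and untreated ones at 7.73, 7.90 and 7.80, and RPL10 in C13 at -0.67.

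The median change of the set lay closer to 0 in replicated lines than in many single-culture ones. The median of the 59 changes lay between -0.09 in PA-1 and 0.09 in A2780 over the 18 replicated lines. Over the 28 others it lay between -0.46 in OVCA432 and 0.51 in OVK-18, and 14 of these were outside the replicated range. OV56 at 0.50, Hey at 0.26, SKOV-6 at -0.43 and M41 at -0.28 were the next most extreme. Within every one of the 46 lines the interquartile range of the 59 changes was narrower than that of all genes. Its median was 0.14 against 0.26 in the replicated lines and 0.26 against 0.48 in the single-culture lines. The 59 genes were mostly bright, and neither these ranges nor the shares of the F test between lines were compared with genes of like level. Whether the set medians of single-culture lines exceed the spread between arrays cannot be tested, since each arm there is 1 array.

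**Figure D4:**
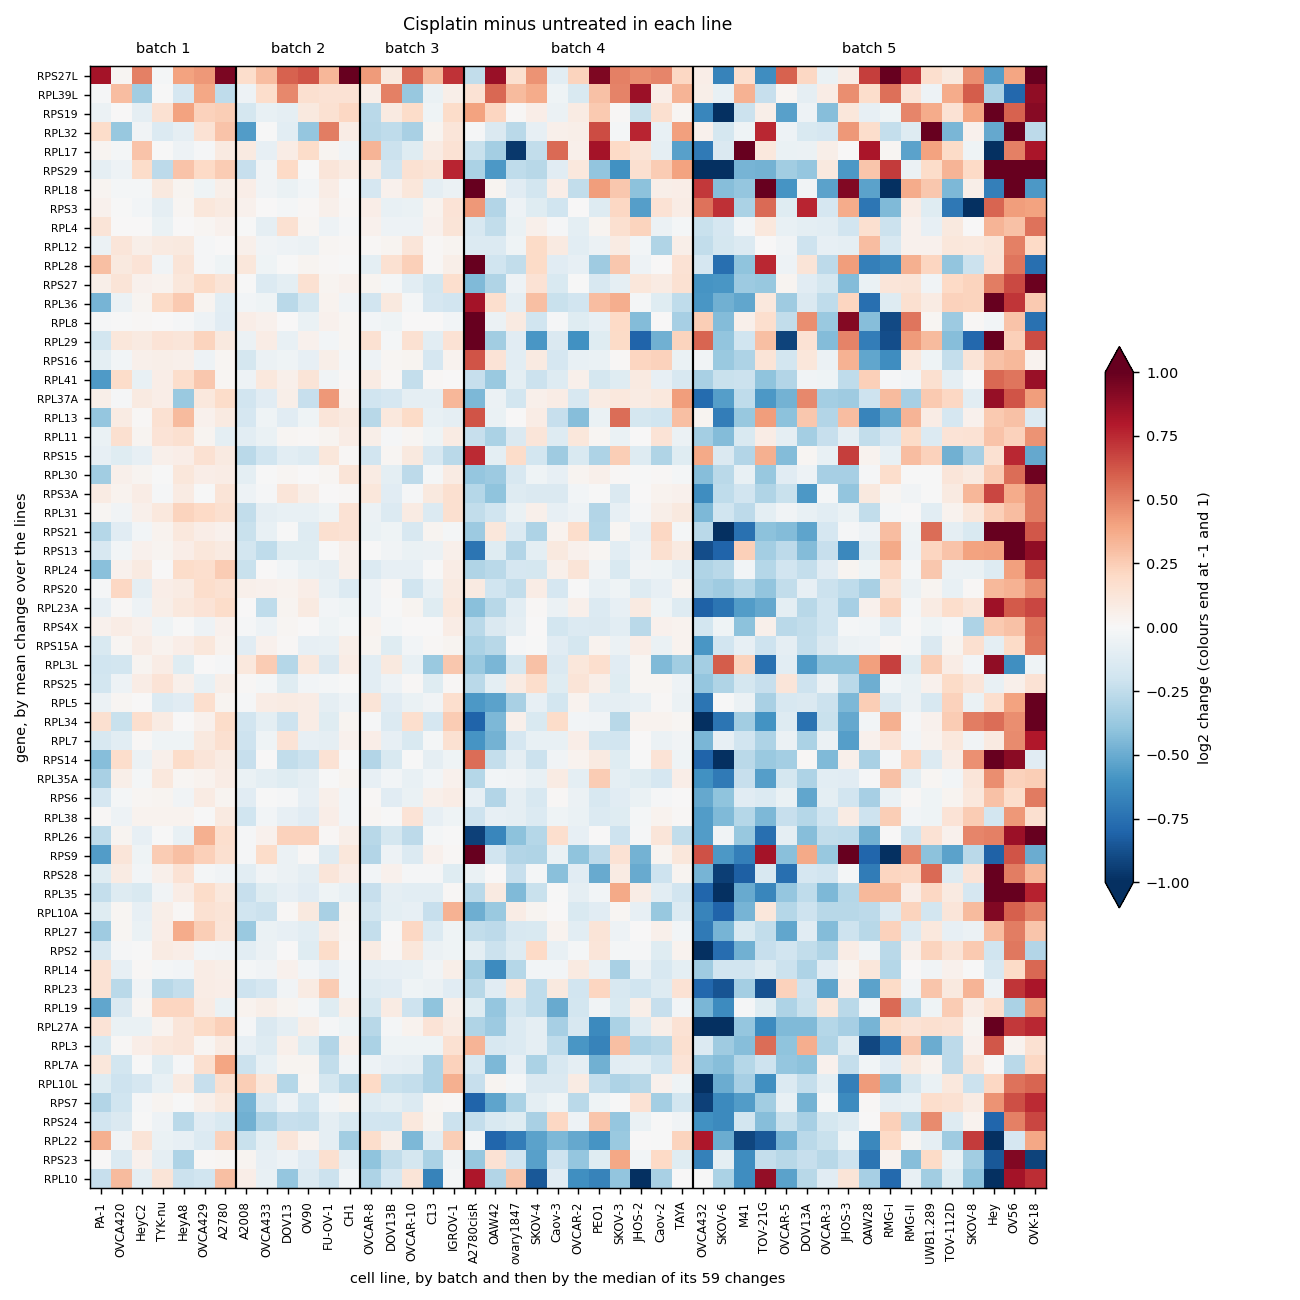
Change with cisplatin (colour, log2, red higher and blue lower) of the 59 genes (rows, by mean change) in 46 lines (columns, by batch and then by the median of the line). The upper row, RPS27L, is red in most lines, batches 1 to 3 are pale, and OV56 and OVK-18 at the right are red for most genes.

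Without treatment, 58 of the 59 genes (98.3%) differed between lines of a batch by limma's F test, against 88.6% of all genes, and RPL5 was the exception (adjusted p = 0.149). The differences were mostly small. Over batches 1 to 3, the median SD between lines was 0.25 over the 59 genes and 0.38 over all genes, and the median SD between cultures of a line was 0.11 for the 59. Between genes the SD ran from 0.08 to 1.08.

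RPL10, a late-joining protein of the large subunit, had the largest SD between lines of batches 1 to 3, at 1.08. Among single cultures the largest SD was that of RPL29 in batch 4, at 0.85, and of RPL39L in batch 5, at 1.46, where RPL10 had 0.75 and 0.55. In batch 1 its untreated level was 8.92 in A2780, 9.77 in OVCA420 and 12.12 in HeyC2, in batch 2 it was 8.93 in FU-OV-1 and 11.65 to 11.85 in the other 5 lines, and in batch 3 it was lowest in OVCAR-10 at 10.02. RPS23, with an SD of 0.63, was low in the same lines of batches 1 and 2, at 7.82 in OVCA420, 8.40 in A2780 and 8.71 in FU-OV-1, but in batch 3 it was lowest in OVCAR-8 at 8.46. The other lines of batches 1 and 2 lay at 9.37 to 9.84 for RPS23. These levels differ by far more than the SD between cultures of 0.20 for RPL10 and 0.12 for RPS23.

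RPS27L, with an SD of 0.71, was highest within their batches in DOV13 of batch 2 at 8.01, DOV13B of batch 3 at 8.13 and DOV13A of batch 5 at 7.37, against batch medians of 6.43, 6.84 and 4.72. In batch 4 it was highest in A2780cisR, at 7.48 against a median of 5.51. It was lowest in OVCA420 of batch 1 at 6.27, in FU-OV-1 of batch 2 and in OVCAR-8 of batch 3 at 5.92. RPL39L, with an SD of 0.55, was at 6.63 in IGROV-1 and 8.33 in OVCAR-10, the ends of batch 3. In batch 5 it was at 2.82 in RMG-II and 2.98 in RMG-I, against a median of 7.25. RPS29, with an SD of 0.53, was at 6.66 in OV90 and 8.33 in A2008, the ends of batch 2. RPS24, with an SD of 0.45, was at 9.48 in OVCA429 and 10.87 in PA-1, the ends of batch 1.

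**Figure D5:**
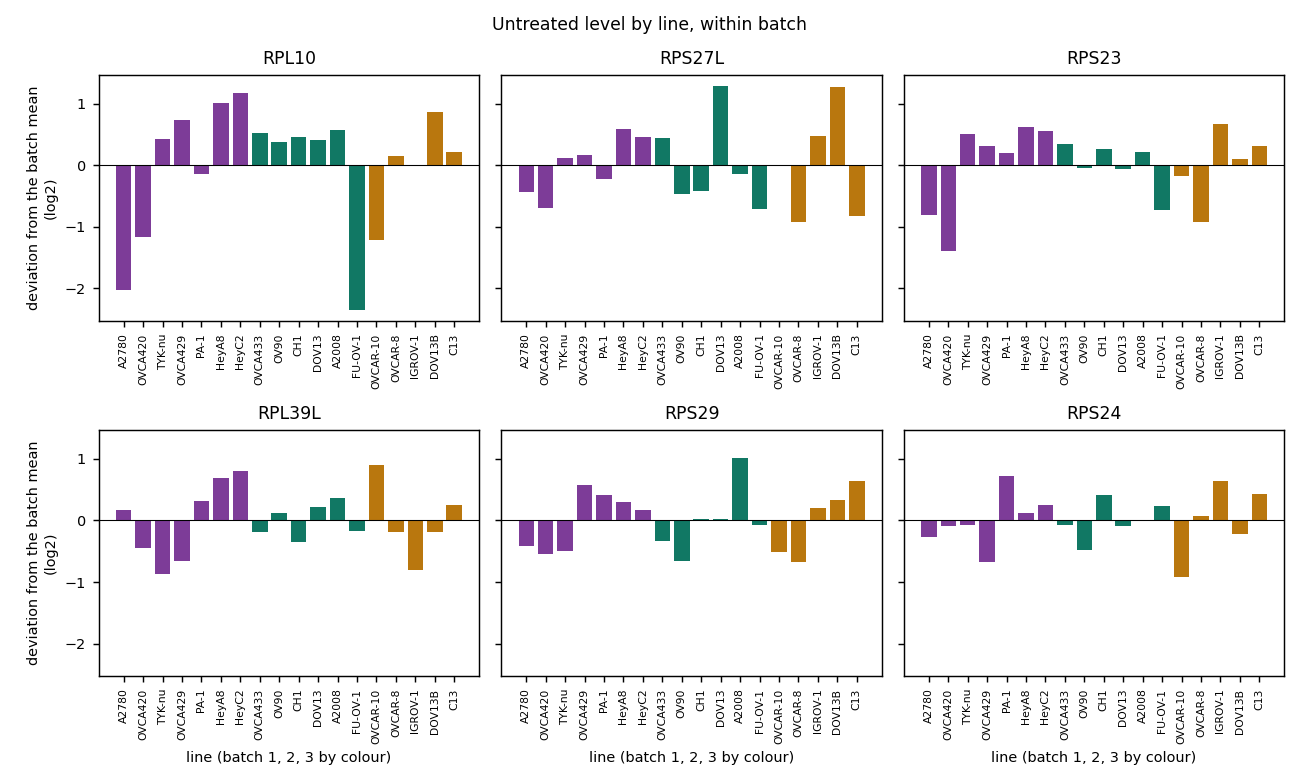
Untreated level of 6 genes as the deviation of each line from the mean of its batch (y axis, log2) in 18 lines, ordered by batch (colour) and then by the median deviation of the 59 genes. RPL10 has the deepest bars, for A2780 and FU-OV-1, and RPS27L the tallest, for DOV13 and DOV13B.

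The median deviation of the 59 untreated levels from the batch mean was 0.17 in HeyC2, 0.17 in FU-OV-1 and 0.16 in C13, and -0.17 in A2780 and -0.35 in OVCAR-10. The 3 OVCAR-10 cultures lay between -0.40 and -0.26, below every other culture of batch 3. After treatment the value of OVCAR-10 was -0.33, against -0.35 without it. Its epithelial list of 10 genes averaged 5.71 without treatment, the lowest of the 18 lines, which reached 9.60 in OVCA429, and the part of this in its low level was not tested. In batch 5, PA-1 was at 0.46 and OAW28 at -0.49, with 1 array each.

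Genes around the ribosome gave the following counts over all lines, from lists chosen with earlier results known; of all genes 4.98% rose and 4.72% fell. Of 7 ribosomal protein genes outside the naming rule, such as RPLP0 and RPSA, 0 rose and 0 fell (median -0.03). Of 17 genes of translation factors and others with the pyrimidine motif, 2 fell and 0 rose (median -0.06): EIF3E by 0.21 and NACA by 0.09. Of 27 ribosome biogenesis genes 5 fell and 0 rose (median -0.02), led by UTP20 by 0.28, NHP2 by 0.22 and BOP1 by 0.14. The median of this list was -0.18, -0.10, -0.18, 0.15 and -0.0039 in batches 1 to 5, so its sign differed between batches. Among 12 genes of RNA polymerase I and its factors, RRN3 rose by 0.24 and UBTF fell by 0.20. Of 73 mitochondrial ribosomal protein genes 3 rose and 12 fell (median -0.05); MRPL1 fell by 0.43, MRPL48 by 0.30 and MRPS27 by 0.23. The response differed between replicated lines for 63% of the mitochondrial set and 81.5% of the biogenesis genes, against 23.7% of the cytosolic set and 51% of all genes. These shares are descriptions, and the difference between them was not tested.

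Few markers of cell types passed over the 46 lines, where 4.98% of all genes rose and 4.72% fell. Of 9 leukocyte genes 1 rose, LYZ by 0.35, and of 5 endothelial, 3 embryonal, 6 mesenchymal and 10 epithelial genes 0 passed in either direction. The epithelial list averaged 5.86 to 9.67 in treated and 5.71 to 9.60 in untreated cultures of the replicated lines. The leukocyte list averaged 4.15 to 5.26 in treated and 4.11 to 5.19 in untreated ones. Where 20 of the 59 genes had several probe sets, the others had a mean change of the same sign as the one used in 16. The 4 exceptions were RPL12, RPL41, RPS15 and RPS27, with changes of 0.01, -0.02, -0.02 and -0.00026 on the probe set used. A shared sign of a mean near 0 is a weak check. Across the lines, changes on the other probe sets correlated with those on the one used at a median of 0.61 over the genes. The lowest was -0.38 for RPL29, and RPS15 was at 0.0043, so probe sets of some genes did not agree.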

How the data were processed

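Total RNA of 46 ovarian cancer cell lines was measured on 171 Affymetrix arrays. The authors deposited log2 expression for 33297 probe sets, and the submitters' processing notes name RMA; its version and the genome build were not given in the sources used here. Of the probe sets, 19460 had 1 gene symbol in the platform annotation, 1754 had several and 12083 were not listed; 19429 were brought up to date through RefSeq (GRCh38.p14), whose promoter sequences are also shown. The probe set with the highest mean was kept per gene. The upper quartile of arrays was 7.82 to 8.08 in batches 1 to 3 and 5.80 to 6.59 in batches 4 and 5, so levels were compared within batches only. The number of arrays limits the precision, and arrays carry no read depth.

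Repeat arrays of 4 cultures were averaged, which left 167 cultures, 82 treated and 85 untreated. In batch 5, an untreated culture each of SKOV-3 and PA-1 lacked a treated one and entered no change. OVCA433, in batches 2 and 4, had its differences combined by least squares, and its batch 4 difference was left out of the batch test. In R 4.3.3 with limma 3.58.1, the 46 differences were tested against 0. The 18 replicated lines were fitted by a group-means model with 71 residual degrees of freedom, which gave contrasts per line and an F test of their differences. Untreated levels were tested by 15 differences within batches, and batches by an F test. Benjamini-Hochberg adjustment ran over all 18417 genes, with a threshold of 0.05. The fits were run on simulated data that had no spread of response between lines beyond the shifts put in. The simulations thus do not check the test over the 46 lines under such a spread.

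Unless a count of calls is listed in full, named genes were those past the threshold over all lines, the 10 largest changes, a fixed set of known roles, the extremes of the line, batch and untreated tests, and up to 3 genes of each list. The genes, lists and tests were chosen with earlier results of these data known. Alternatives changed the scaling, pairing, probe sets, batches, lines and cultures used; those that leave out lines or arrays standing apart were chosen after seeing the data. Ribosomal protein genes have many processed pseudogenes, so their probe sets may also read near-identical copies.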

Additional observations from a re-analysis of the deposited data

Results flagged for a closer look

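For 14 of the 59 genes the change with cisplatin differed between the 18 replicated lines by limma's F test, adjusted over all genes. RPS27L had an adjusted p of 5.31e-05 and ran from -0.02 in TYK-nu to 1.10 in CH1. RPL37A (adjusted p = 0.000898) ran between HeyA8 (-0.37) and FU-OV-1 (0.44), RPL32 (0.00433) was at -0.56 in A2008 and 0.51 in FU-OV-1, and RPL27 (0.00534) at -0.37 in A2008 and 0.37 in HeyA8. For 6 genes PA-1 was the lowest line. RPS14 (adjusted p = 0.00144) ran from -0.42 to 0.18 in HeyA8, RPL36 (0.00157) from -0.47 to 0.26 in HeyA8, and RPL24 (0.00351) from -0.42 to 0.26 in A2780. RPL13 (0.00424) ran from -0.39 to 0.31 in HeyA8, RPS9 (0.00488) from -0.56 to 0.30 in HeyA8, and RPL41 (0.0179) from -0.56 to 0.27 in OVCA429. RPL3 (adjusted p = 0.00372) was at -0.31 in OVCAR-8 and 0.16 in IGROV-1, and RPL10L (0.00946), a testis paralog, at -0.31 in C13 and 0.36 in IGROV-1. RPL39L (0.0125) was at -0.38 in OVCAR-10 (-0.08 without the arrays that stood apart) and 0.50 in DOV13B, and RPS15 (0.0368) at -0.29 in OVCA433 and 0.15 in OVCA429.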

How the results depend on the processing

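Over all lines, 1 higher and 3 lower genes became 2 and 3 with the replicate block, without dim genes or without the arrays that stood apart, 1 and 0 with equal batch weights, in batch 4 alone or without batch 4, 0 and 0 in batches 1, 2, 3 or 5 alone, 1 and 1 in batches 1 to 3 alone, 0 and 1 in batches 4 and 5 alone, 2 and 1 with the level trend removed, and 2 and 2 without the 4 lines that matched another line. RPL7A turned to 0.0501 (adjusted p = 0.824) in batch 1 alone. Leaving out a replicate number gave 1 to 2 higher and 2 to 3 lower genes. Leaving out each line gave 1 to 2 higher and 2 to 6 lower, with 6 lower without OVK-18 (RPL14, RPL22 and RPS7 added) and 5 without OV56 (RPL10 and RPS7 added). In the replicated lines, 16 higher and 23 lower calls became 8 and 4 with each line fitted alone, 12 lower without PA-1, 7 higher without RPS27L, and 6 to 12 higher and 1 to 25 lower without a replicate number, and the 14 genes that differed between lines became 2 to 16. In HeyA8 this can leave 1 treated culture, assumed to vary like the other groups. The replicate numbers did not pair the samples: same-numbered cultures correlated over 0.1 in 7 of 53 pairs (-0.50 to 0.42), and the block gave 13 higher and 16 lower calls and 12 genes differing between lines. The counts of 58 for untreated levels and 0 for batches stayed within 1.5 times under every alternative run. Of the changes of 19 single named genes, 338 values under alternatives kept their call, 34 no longer passed, 7 newly passed and 1 reversed. Of these genes only RPS27L, RPS23, RPS24 and RPL7A passed in the main fit. Most kept calls were thus of genes that passed in neither fit, while the 34 and the 1 all came from these 4 genes.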

Other observations

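Some single-culture lines showed opposite changes among ribosomal protein genes within 1 line, a pattern chosen after its values were seen. In A2780cisR, RPL29 was at 1.75, RPL8 at 1.67 and RPL18 at 1.67, while RPL26 was at -0.93, RPL34 at -0.80 and RPS7 at -0.80. In JHOS-3 the signs were alike, with RPL18 at 0.93, RPL8 at 0.92 and RPL29 at 0.50, and RPS7 at -0.63, RPL34 at -0.52 and RPL26 at -0.25. In RMG-I RPL18 was at -1.42, RPL8 at -0.90 and RPL29 at -0.89, while RPL34 was at 0.35, RPL26 at 0.0051 and RPS7 at -0.09. In OVK-18 RPL8 was at -0.74 and RPL18 at -0.57, but RPL29 was at 0.65, beside 1.30 for RPL26, 1.24 for RPL34 and 0.75 for RPS7. The grouping thus held in part in these 2 lines. In OVCA432 it held, with RPL18 at 0.71 and RPL29 at 0.58, beside -1.09 for RPL34 and -0.56 for RPL26. In OV56 it did not, as RPL18 (1.04), RPL8 (0.28), RPL29 (0.24), RPL26 (0.86) and RPL34 (0.46) were all higher. In SKOV-6 the same genes were all below 0. Lines with and without the grouping were not counted. Each value is the difference of 1 treated and 1 untreated array, so none can be tested. Across the lines, the changes on the RPL29 probe set used correlated at -0.38 with those on its other probe set. For RPL34 this correlation was 0.48 and for RPS7 0.86, while RPL8, RPL18 and RPL26 had 1 probe set each. Whether the pattern depends on the probe sets was not tested.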
